A study of Mus musculus with 136 samples.

Results

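The immediate-early genes Fos, Atf3, Nr4a3, Btg2, Ier3 and Ifrd1 are described here across 136 RNA sequencing libraries of mouse bone marrow-derived macrophages. They were chosen by name and are 6 of the 15196 genes of the deposited table. The cells came from C57/B16 mice, wild type unless stated, and were grown for 6 days with M-CSF. In the 4 knockout series, cells labelled Nfkb1-/-, Nfkbiz-/-, Bcl3-/- or Nfkbid-/- stood beside their own wild type at 0, 0.5, 1, 2 and 6 h of lipid A, with 3 replicates per group in the Nfkb1 and Nfkbid series and 2 in the Nfkbiz and Bcl3 series. Lipid A, the active portion of bacterial endotoxin, is a ligand of the TLR4 receptor. In the ERK series, wild-type cells pretreated with an ERK inhibitor, which the labels call ERKi and do not name, stood beside cells pretreated with DMSO at 0, 15, 30 and 60 min of lipid A, with 1 library per condition. A TNFa time course of wild-type cells had 1 library per time. These 113 libraries hold RNA that the labels call nuclear, taken from chromatin. A further 23 libraries are labelled polyA RNA: wild-type cells over a lipid A and a TNFa time course (9 libraries), cells titled IkBz OE, with the genotype label wild type, beside control cells (6) at 0 h and after 2 h of TNFa or lipid A, and cells labelled J2 (8) that were Nfkb1-/- Nfkb2-/-, Nfkb1-/- or wild type at 0 and 2 h of lipid A. The labels do not say what J2 means, what OE stands for, whether mice were pooled, or whether replicates came from separate mice, so p-values measure the spread between these samples.

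Immediate-early genes are transcribed within minutes of a stimulus from factors already present in the cell, without new protein. Growth factor and Toll-like receptor signals reach them through the kinases ERK, p38 and JNK, which act on ternary complex factors, CREB and ATF proteins at their promoters, and through NF-kB. Transcription of these genes then stops again within an hour or so, and their RNA is short-lived. Fos is a subunit of the AP-1 transcription factor. Atf3 is a factor of the CREB and ATF family that restrains inflammatory genes in macrophages. Nr4a3 is an orphan nuclear receptor of the group that also holds Nr4a1. Btg2 is an antiproliferative cofactor of the RNA deadenylase complex. Ier3, also called IEX-1, is a small stress-inducible regulator of survival and of NF-kB and ERK signals. Ifrd1 is a transcriptional coregulator that can repress NF-kB.

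The 6 genes lie on 4 chromosomes of the mm9 build as deposited. Fos spans chr12:86814839-86818224, Atf3 chr1:192994175-193007212, Nr4a3 chr4:48058176-48099318, Btg2 chr1:135971441-135975732, Ier3 chr17:35958657-35959856 and Ifrd1 chr12:40929715-40949776. Values are RPKM, reads per kilobase of gene scaled to library depth, so that levels are per length, and in chromatin RNA the length is the whole gene with introns. Ier3 is the shortest at 1.199 kb and Nr4a3 the longest at 41.142 kb. Ifrd1 overlaps Mir1938, so reads over the shared bases cannot be told apart. The other 5 members overlap no gene of the table.

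The 250 bases before the annotated start (RefSeq, build GRCm38.p6) of 4 members are shown because they differ in the short motifs of the factors named above. Capitals mark TGACG, the core of the cAMP response element bound by CREB and ATF proteins, on either strand, the full element TGACGTCA, and matches to the kB consensus of NF-kB. Sequences run 5′ to 3′ on the strand of the gene.
Fos, chr12:85473640-85473889, plus strand: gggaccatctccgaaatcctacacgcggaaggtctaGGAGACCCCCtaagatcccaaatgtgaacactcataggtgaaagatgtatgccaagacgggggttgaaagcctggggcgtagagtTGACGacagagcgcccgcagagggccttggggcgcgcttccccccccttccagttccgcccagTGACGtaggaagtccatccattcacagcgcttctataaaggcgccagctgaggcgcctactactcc
Btg2, chr1:134079156-134079405, minus strand: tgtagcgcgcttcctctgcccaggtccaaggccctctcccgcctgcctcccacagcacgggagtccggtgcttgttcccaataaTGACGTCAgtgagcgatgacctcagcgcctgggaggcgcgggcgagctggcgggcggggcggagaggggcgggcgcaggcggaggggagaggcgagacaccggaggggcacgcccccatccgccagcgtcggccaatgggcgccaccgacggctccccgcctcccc
Nr4a3, chr4:48045055-48045304, plus strand: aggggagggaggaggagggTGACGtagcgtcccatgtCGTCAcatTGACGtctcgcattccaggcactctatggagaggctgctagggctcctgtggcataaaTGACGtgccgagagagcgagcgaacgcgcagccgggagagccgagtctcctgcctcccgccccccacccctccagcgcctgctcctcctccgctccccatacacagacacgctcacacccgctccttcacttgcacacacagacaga
Ier3, chr17:35821463-35821712, plus strand: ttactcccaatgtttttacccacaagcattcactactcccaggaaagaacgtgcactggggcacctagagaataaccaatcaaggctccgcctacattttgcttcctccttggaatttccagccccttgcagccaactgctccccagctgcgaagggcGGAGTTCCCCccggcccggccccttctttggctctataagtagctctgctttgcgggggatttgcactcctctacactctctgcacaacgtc
The full element TGACGTCA stood in the Btg2 window, 166 to 159 bases before the start, and in 1.62% of the 27025 promoter windows of the same length. The core TGACG, which also lies inside the full element, was found in 17.9% of these windows. Nr4a3 held 4 cores, Fos held 2, and the windows of Atf3 and Ifrd1, not printed, held 1 each. A kB match was present in Fos and in Ier3, against 7.01% of all windows. The CArG box of SRF (1.4% of windows) and the AP-1 site TGACTCA (4.43%) were in none of the 6 windows. Bases further upstream than 250, or after the start, were not searched, so these genes may hold such sites there. A match is a run of letters, and no binding was measured.

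Depth was 7856425 to 45318485 reads per chromatin library, with a median of 28785887, as recovered from the steps between values, and is not known here for the polyA libraries. The scarcest member, Nr4a3, rested on 1 to 2314 reads per chromatin library. In the Nfkb1 series Fos rested on 4 to 416 reads and Ier3 on 4 to 364. Macrophage markers in the table (Csf1r, Lyz2 and Mertk) summed to a median of 27.1 RPKM in chromatin RNA. Markers in the table of T cells (4), B cells (2), dendritic cells (2), erythroid cells (2) and mast cells and basophils (3) each stayed below 1 RPKM in every chromatin library. Nfkb1 RNA was 0.703 to 21.3 RPKM in the 15 libraries labelled Nfkb1-/-, against 1.33 to 24.0 RPKM in their wild type. Bcl3 RNA was 8.79 to 40.9 RPKM in libraries labelled Bcl3-/-, against 2.21 to 18.1 RPKM in their wild type. A value over a whole gene does not test for a deletion of unknown position, so genotypes are those of the labels. Nfkbiz and Nfkbid RNA were not analysed here. Replicate 1 of the Nfkbid series, in both genotypes, stood apart before any comparison: its 10 libraries had 6.92 to 19.4 RPKM of the nuclear RNA Malat1, against 823 to 1640 RPKM in replicates 2 and 3 and 27.9 to 327 RPKM in the polyA libraries. In those replicate 1 libraries the 3 neutrophil markers in the table (S100a8, Elane and Mpo) summed to 23.4 to 37.5 RPKM in Nfkbid-/- cells and to 11.99 to 19.9 RPKM in wild type, against 0.0435 to 0.402 RPKM in all other chromatin libraries. The 2 fibroblast markers in the table (Col1a1 and Col1a2) summed to 0.688 to 2.29 RPKM in Nfkbid-/- cells and to 2.61 to 3.95 RPKM in wild type, against 0.00287 to 1.40 RPKM in the other chromatin libraries, and the macrophage markers to 888 to 3140 RPKM and 460 to 1197 RPKM, against 5.96 to 157 RPKM. In the polyA libraries the neutrophil markers summed to 0.474 to 147 RPKM, the fibroblast markers to 0.00786 to 0.407 RPKM and the macrophage markers to 3020 to 16800 RPKM. The part of these differences of replicate 1 in the values was not tested. Wild-type and Nfkbid values without replicate 1 are given beside those with it.

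In wild-type macrophages given lipid A, 5 of the 6 genes were highest at 0.5 h, the first time sampled after 0 h, and Nr4a3 at 1 h. In DMSO cells of the ERK series, also sampled at 15 min, Fos, Btg2, Atf3 and Ier3 were higher at 15 than at 30 min. Fos there had 49.5 RPKM at 15 min and 9.83 RPKM at 30 min, with 1 library each. Only Ifrd1 of the 5 was higher at 30 min, so 0.5 h need not be the peak of the others. On the log2(RPKM + 0.5) scale Ifrd1 and Atf3 rose the most, while in RPKM Nr4a3 had the largest ratio to its 0 h level. Fos was up briefly and rose again with Ier3 at 6 h. Btg2 was back near its starting level at 1 h (0.45, limma adjusted p = 0.41), lay below it at 2 h, and rose by less than those 2 genes from 2 to 6 h. The values below are the lowest, the median and the highest of the 10 wild-type libraries of the 4 knockout series at each time. A gene counted as changed at an adjusted p under 0.05 (limma on log2(RPKM + 0.5), Benjamini-Hochberg over 4260 genes) and a difference of at least 2-fold. All differences below are on that log2 scale, ± standard error.

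Ifrd1 had 2.14, 3.20 and 5.28 RPKM at 0 h, 17.8, 90.8 and 144 RPKM at 0.5 h, 2.22, 9.94 and 38.7 RPKM at 1 h, 1.28, 1.93 and 8.11 RPKM at 2 h, and 1.77, 2.43 and 3.43 RPKM at 6 h. Every library was above the highest 0 h value at 0.5 h, and by 2 h the values again overlapped those at 0 h. The rise at 0.5 h was 4.38 ± 0.30 (adjusted p = 3.2e-16), and the fall to 1 h was -2.84 ± 0.30 (adjusted p = 4.3e-10). Nfkbid replicate 1 was the lowest at 0.5 h and the highest at 2 h, and without it Ifrd1 was at least 54.1 RPKM at 0.5 h and at most 2.73 RPKM at 2 h, with a rise of 4.55 ± 0.24.

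Atf3 had 8.28, 12.3 and 27.6 RPKM at 0 h, 64.4, 144 and 217 RPKM at 0.5 h, 25.8, 40.5 and 101 RPKM at 1 h, 18.2, 26.8 and 50.7 RPKM at 2 h, and 16.2, 26.6 and 60.5 RPKM at 6 h. It was the member with the highest starting level and did not return to it: it was above 0 h at every later time, by 3.29 ± 0.24 at 0.5 h (adjusted p = 2.4e-15) and still by 1.11 ± 0.24 at 6 h (adjusted p = 0.00012). Without Nfkbid replicate 1, the highest library at 0, 1, 2 and 6 h, these were 3.37 ± 0.20 and 1.11 ± 0.20, and the highest value at 6 h was 38.3 RPKM.

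Nr4a3 was nearly silent at 0 h, with 0.00094, 0.00544 and 0.0103 RPKM. It had 0.0166, 0.132 and 0.308 RPKM at 0.5 h, 0.374, 1.17 and 1.77 RPKM at 1 h, 0.433, 0.919 and 1.27 RPKM at 2 h, and 0.0276, 0.0973 and 0.408 RPKM at 6 h. Each library at 0.5 h lay above all libraries at 0 h, although on the log2(RPKM + 0.5) scale, which shrinks changes of such low values, the difference was 0.33 ± 0.12 and under 2-fold. The rise at 1 h was 1.65 ± 0.12 over 0 h (adjusted p = 3.3e-15). Nr4a3 then held at 2 h and fell by 6 h, by -1.15 ± 0.12 against 2 h (adjusted p = 1.1e-09). Without Nfkbid replicate 1, the lowest library at 0.5 and 1 h and the highest at 6 h, the rise at 1 h was 1.75 ± 0.11 and the fall -1.17 ± 0.11.

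Btg2 had 0.627, 1.58 and 10.2 RPKM at 0 h, 9.44, 11.6 and 227 RPKM at 0.5 h, 0.650, 1.74 and 41.1 RPKM at 1 h, 0.209, 0.461 and 5.91 RPKM at 2 h, and 0.762, 1.37 and 7.78 RPKM at 6 h. The rise at 0.5 h was 2.87 ± 0.44 (adjusted p = 4.6e-07). The highest value at each time was Nfkbid replicate 1, and the other 9 libraries lay between 9.44 and 13.6 RPKM at 0.5 h, with a rise of 2.69 ± 0.17. At 2 h Btg2 stood at -0.81, -0.94, -1.39 and -0.88 against 0 h in the Nfkb1, Nfkbiz, Bcl3 and Nfkbid series. From 2 to 6 h it rose in each, by 0.93, 0.80, 1.10 and 0.77, which is under 2-fold in all but the Bcl3 series.

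Ier3 had 0.607, 1.79 and 8.53 RPKM at 0 h, 5.10, 10.8 and 259 RPKM at 0.5 h, 1.17, 5.95 and 32.2 RPKM at 1 h, 1.20, 2.37 and 12.0 RPKM at 2 h, and 3.44, 7.30 and 55.2 RPKM at 6 h. It rose at 0.5 h by 2.53 ± 0.45 (adjusted p = 5.8e-06) and again at 6 h, by 1.45 ± 0.45 against 2 h (adjusted p = 0.013). Without Nfkbid replicate 1, its highest value was 17.9 RPKM at 0.5 h and 9.40 RPKM at 6 h, and the rises were 2.27 ± 0.25 and 1.37 ± 0.25.

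Fos had 0.392, 1.49 and 6.63 RPKM at 0 h, 3.38, 4.76 and 173 RPKM at 0.5 h, 0.566, 0.783 and 10.3 RPKM at 1 h, 0.329, 0.726 and 2.86 RPKM at 2 h, and 1.22, 2.16 and 10.1 RPKM at 6 h. The rise was 1.78 ± 0.40 at 0.5 h (adjusted p = 0.00021), followed by a fall of -2.13 ± 0.40 to 1 h and a second rise of 1.20 ± 0.40 from 2 to 6 h (adjusted p = 0.023). Here too replicate 1 of the Nfkbid series was the highest at every time, and without it Fos reached at most 7.41 RPKM at 0.5 h, with rises of 1.47 ± 0.20 at 0.5 h and 1.15 ± 0.20 from 2 to 6 h.

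Of the genes tested, 6.17% were called higher at 0.5 h than at 0 h, and 5 of the 6 members were among them. From 2 to 6 h, 4.06% of genes were called higher, with Fos and Ier3 among them. The median of all genes tested was -0.48 at 0.5 h and -0.33 at 6 h against 0 h, so each library was also centred on its own median. Every rise above kept its direction, and the rise at 0.5 h was then 2.25 for Fos, 3.75 for Atf3, 3.33 for Btg2, 2.99 for Ier3 and 4.84 for Ifrd1. Within the Nfkb1, Nfkbiz, Bcl3 and Nfkbid series the rise at 0.5 h of Fos was 1.40, 1.48, 1.61 and 2.48, and that of Ifrd1 was 4.56, 4.56, 4.82 and 3.78, so the Nfkbid series was the highest for Fos and the lowest for Ifrd1. The second rises of Fos and Ier3 were between 1.13 and 1.26, and between 1.03 and 1.66, in the 4 series. Those second rises lost their adjusted p when the Nfkb1, the Nfkbiz or the Bcl3 series was left out, to 0.097 to 0.18 for Fos and 0.066 to 0.089 for Ier3, and that of Fos also with a pseudocount of 1 (0.053). Leaving out Nfkbid replicate 1 alone ended none of the calls above.

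**Figure D1:**
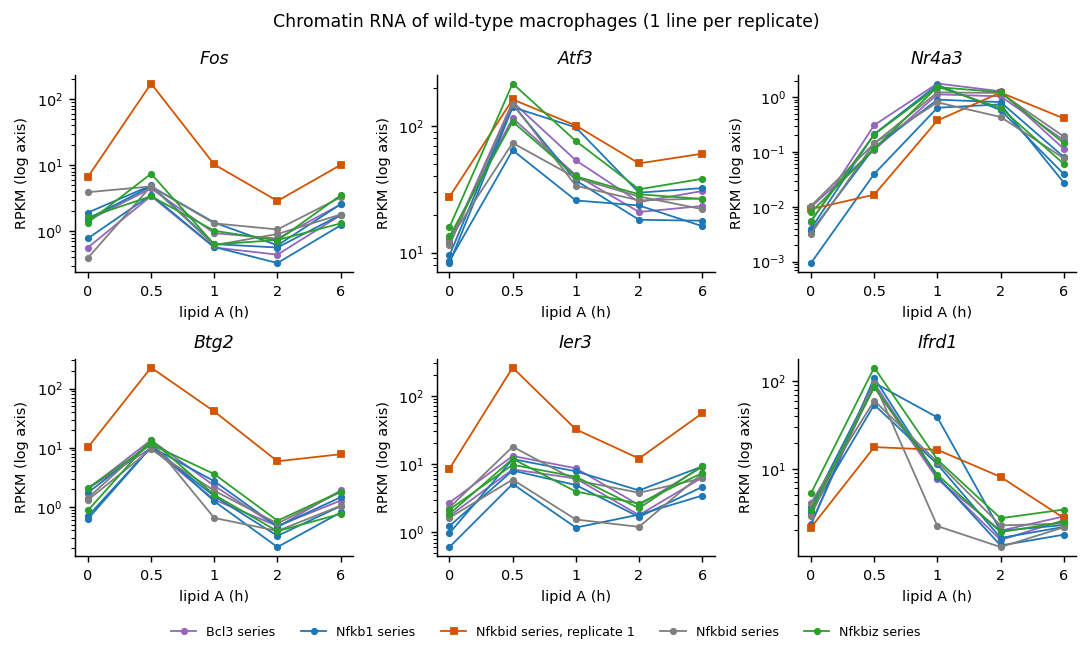
Chromatin RNA in RPKM (log axis) against hours of lipid A for the 6 genes in wild-type macrophages, 1 line per replicate, coloured by series. Fos, Atf3, Btg2, Ier3 and Ifrd1 are highest at 0.5 h, the first time after 0 h, and Nr4a3 at 1 h to 2 h. Replicate 1 of the Nfkbid series (squares) runs above the other lines for Fos, Btg2 and Ier3, reaching 173 RPKM of Fos at 0.5 h, but below them for Ifrd1 at 0.5 h.

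The ERK series set an ERK inhibitor against DMSO. With the inhibitor, Fos was the lowest relative to DMSO at 15 and 30 min, followed by Btg2, Ifrd1 and Ier3, and Nr4a3 lay moderately below DMSO at 30 and 60 min. Atf3 went the other way at 30 and 60 min and fell less after 15 min, but it was already higher with the inhibitor before lipid A. There was 1 library per condition, so no difference here has a replicate check, and the 95% intervals on each ratio cover the counting of reads only.

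Fos had 0.948, 12.6, 2.94 and 0.564 RPKM at 0, 15, 30 and 60 min with the inhibitor, against 3.20, 49.5, 9.83 and 0.874 RPKM with DMSO. At 15 min it stood at 25.5% of the DMSO value (23.8% to 27.3%) and at 30 min at 29.9% (25.6% to 34.8%). At 60 min, when both were low, it was at 64.5% (44.2% to 93.2%). It was already at 29.6% (23.4% to 37.3%) before lipid A was added, so that the rise from 0 to 15 min was 13.3-fold with the inhibitor and 15.5-fold with DMSO.

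Btg2 had 1.97, 21.5, 6.42 and 1.13 RPKM with the inhibitor, against 1.81, 45.2, 18.6 and 1.95 RPKM with DMSO. Before lipid A the ratio was 109% (90.2% to 132%), unlike that of Fos. At 15 min Btg2 was at 47.5% of DMSO (45.1% to 50%), and at 30 min at 34.6% (31.5% to 37.9%). Its rise from 0 to 15 min was 10.9-fold with the inhibitor and 25-fold with DMSO.

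Ifrd1 had 1.60, 18.9, 38.5 and 3.38 RPKM with the inhibitor, against 1.72, 36.8, 80.5 and 5.79 RPKM with DMSO. It peaked at 30 min and not at 15 min in both. Its ratio was 92.8% (84.6% to 102%) at 0 min, 51.4% (50.1% to 52.8%) at 15 min, which is under 2-fold, and 47.8% (46.9% to 48.7%) at 30 min, and its rise from 0 to 30 min was 24.1-fold with the inhibitor and 46.8-fold with DMSO.

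Ier3 had 1.34, 11.7, 8.66 and 3.28 RPKM with the inhibitor, against 1.95, 17.7, 15.3 and 5.69 RPKM with DMSO. The ratio was 65.7% (57% to 75.7%) at 15 min and 56.6% (48% to 66.6%) at 30 min, less than 2-fold at both. It was at 68.7% (46.3% to 102%) at 0 min, and its rise to 15 min was 8.71-fold with the inhibitor and 9.11-fold with DMSO.

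Atf3 had 12.8, 79.1, 61.6 and 26.6 RPKM with the inhibitor, against 9.16, 85.0, 41.9 and 12.8 RPKM with DMSO. At 15 min the values lay close together, at 93% of DMSO (91.4% to 94.7%). Before lipid A the inhibitor library was at 139% (133% to 146%), at 30 min at 147% (144% to 151%) and at 60 min at 207% (200% to 215%), so that the fall after the peak was smaller with the inhibitor. Relative to 0 min, Atf3 stood 6.2-fold higher at 15 min with the inhibitor and 9.28-fold with DMSO. At 30 min these were 4.83-fold and 4.57-fold, and at 60 min 2.09-fold and 1.4-fold.

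Nr4a3 had 0.00515, 0.0415, 0.173 and 0.532 RPKM with the inhibitor, against 0.00304, 0.0469, 0.228 and 0.721 RPKM with DMSO. It was still climbing at 60 min in both. Its ratio was 75.5% (61.1% to 93.2%) at 30 min and 73.8% (66.1% to 82.3%) at 60 min, and it stayed under the filter of 1 RPKM in every library of the series.

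Among the 3022 genes that reached 1 RPKM in at least 2 libraries of the series, 1.85% were at least 2-fold lower with the inhibitor at 30 min (log2 ratio of RPKM + 0.5), among them Fos, Btg2 and Ifrd1. At 15 min 1.56% were, among them Fos and Btg2. At 60 min 2.75% of genes were at least 2-fold higher, and Atf3 was among them with a log2 ratio of 1.02, close to the threshold. Other genes of the pathway were taken as lists. Of 27 other immediate-early genes past the filter, 4 were at least 2-fold lower and 1 higher at 30 min, with a median log2 ratio of -0.32 against -0.01 for all genes. The largest drop was that of Egr1, the zinc-finger factor long used as a readout of ERK activity, with 0.316 RPKM against 21.96 RPKM (-4.78). Ier2, another immediate-early gene, was at -1.60, Dusp1, the phosphatase that inactivates p38 and JNK, at -1.43, and Btg1, a close relative of Btg2, at -1.04, and at 60 min Btg1 was at -1.01. Ppp1r15a, a stress-induced regulatory subunit of protein phosphatase 1, was higher at 1.06. Of 4 ERK feedback targets past the filter, all were below DMSO at 30 min, 2 of them at least 2-fold, and 3 were at least 2-fold lower at 60 min, as were 3.34% of all genes: Dusp5 (-2.58) and Dusp4 (-1.39), both phosphatases of ERK, and Phlda1 (-1.85 at 30 min, -1.63 at 60 min). Jdp2, an AP-1 repressor, was 1 of 3 CREB and ATF genes past the filter and the 1 at least 2-fold lower at 60 min (-1.08). Map3k8, the kinase that activates MEK below TLR4, was higher at 60 min (1.35). Among 10 NF-kB primary response genes, Icam1, an adhesion molecule, was higher at 30 min (1.14) and none was at least 2-fold lower.

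**Figure D2:**
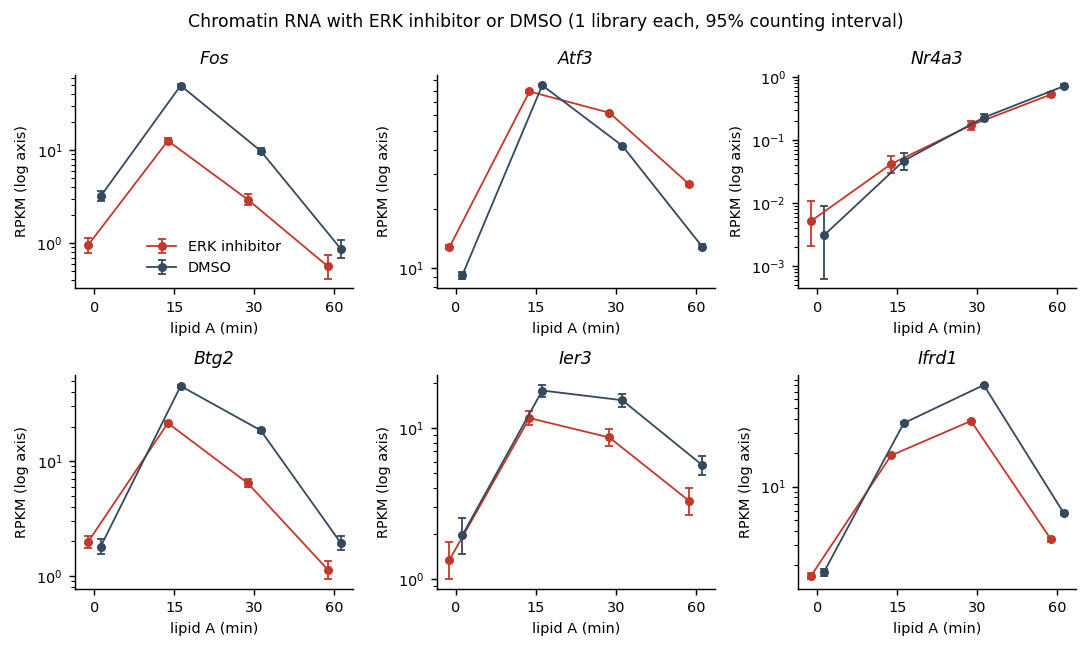
Chromatin RNA in RPKM (log axis) against minutes of lipid A with ERK inhibitor or DMSO, 1 library per point, bars 95% counting intervals. Fos lies below DMSO at 0, 15 and 30 min (12.6 against 49.5 RPKM at 15 min), Btg2, Ier3 and Ifrd1 from 15 min on, and Atf3 above it at 0, 30 and 60 min.

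In the Nfkb1 series, which asked what p50 contributes, Fos was lower in Nfkb1-/- cells at 6 h, where its mean stood at 0.337 RPKM, beside 0.267 RPKM at 2 h. Atf3, Ier3 and Ifrd1 values also lay lower at some times, and those of Btg2 slightly higher, without passing the test, and Nr4a3, lower at 1 and 2 h, was under the filter. Background shares were low: 0.221% of 4523 genes were called lower at 6 h and 0.0663% at 0.5 h, while the shares for 1 h and 2 h were 0.597% and 0.376%. In the other direction 0.0442% were called higher at 1 h, and over all stimulated times 0.906% were called lower. These shares belong to the fit without a block. The fits with a replicate block, quoted below for some members, called more genes of all, as counted in the last section. Their shares at each time are not given here, so a blocked call has no background beside it.

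Fos at 6 h had 0.304, 0.301 and 0.405 RPKM in Nfkb1-/- cells, against 1.77, 1.22 and 2.56 RPKM in wild type. All 3 knockout libraries were below all 3 wild-type libraries, as were 4.05% of genes at that time. The mean was 0.337 ± 0.059 against 1.85 ± 0.671 RPKM (SD, n = 3 each), a difference of -1.45 ± 0.25 (limma, adjusted p = 0.0046). At 2 h Fos had 0.150, 0.292 and 0.358 RPKM in Nfkb1-/- cells, against 0.564, 0.329 and 0.608 RPKM in wild type, and these groups overlapped. The call at 6 h was lost without knockout replicate 2 (adjusted p = 0.1), wild-type replicate 1 (0.076) or wild-type replicate 3 (0.17), and with each time fitted alone (0.2), while the difference stayed between -1.24 and -1.46 in those fits.

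Fos at 0.5 h had 2.34, 1.55 and 1.84 RPKM in Nfkb1-/- cells, against 4.92, 3.55 and 4.77 RPKM in wild type. The groups did not overlap, as was so for 2.01% of genes in that direction. The difference of -1.03 ± 0.25 did not pass (limma, adjusted p = 0.28). With the replicate number as a block it did (adjusted p = 0.0058).

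Ifrd1 at 0.5 h had 26.1, 50.6 and 40.5 RPKM in Nfkb1-/- cells, against 54.1, 109.9 and 96.2 RPKM in wild type. The groups did not overlap. The difference of -1.13 ± 0.44 passed only with a replicate block at each time (limma, adjusted p = 1 without it and 0.0026 with it). Atf3 at 6 h, with 5.82, 7.33 and 14.9 RPKM in Nfkb1-/- cells, against 16.2, 17.9 and 32.3 RPKM in wild type, behaved alike: -1.24 ± 0.57, adjusted p = 1, and 0.0039 with a block at each time.

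Nr4a3 at 1 h had 0.364, 0.319 and 0.191 RPKM in Nfkb1-/- cells, against 0.896, 1.66 and 0.638 RPKM in wild type. At 2 h it had 0.201, 0.222 and 0.144 RPKM in Nfkb1-/- cells, against 0.808, 0.578 and 0.735 RPKM in wild type. Knockout and wild type did not overlap at either time, as was so in that direction for 3.63% of genes at 1 h and 5.77% at 2 h, and the ratio of means was 0.273 at 1 h and 0.268 at 2 h. Nr4a3 reached 1 RPKM in too few libraries of the series to be tested, so only 5 of the 6 members were. With no filter its differences were -0.94 (adjusted p = 0.0074) at 1 h and -0.81 (adjusted p = 0.035) at 2 h, under 2-fold on the log2(RPKM + 0.5) scale. At 6 h the order was turned round, with 0.281, 0.174 and 0.064 RPKM in Nfkb1-/- cells, against 0.0808, 0.0394 and 0.0276 RPKM in wild type, and the groups overlapped.

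Btg2 differed little. At 0.5 h it had 9.30, 12.97 and 14.7 RPKM in Nfkb1-/- cells, against 10.3, 11.7 and 10.3 RPKM in wild type (0.17 ± 0.34). At 6 h every knockout library was above every wild-type library, with means of 1.68 and 1.10 RPKM (0.47 ± 0.34, limma adjusted p = 1), as was so for 7.47% of genes. Ier3 at 0.5 h had 1.58, 4.80 and 6.69 RPKM in Nfkb1-/- cells, against 5.10, 8.01 and 11.8 RPKM in wild type (-0.96 ± 0.59, limma adjusted p = 1), and the groups overlapped. Ifrd1 at 6 h was also lower in every knockout library, with means of 1.57 and 2.08 RPKM (-0.31 ± 0.44, adjusted p = 1).

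Of 26 other immediate-early genes tested in this series, 2 were called lower and 0 higher at any time after lipid A: Egr1 at 0.5 h (-2.99 ± 0.16, limma adjusted p = 1.1e-12) and Gadd45b, a stress sensor, at 1 h (-2.39 ± 0.43, adjusted p = 0.0023). The median of the list at 0.5 h was -0.19, against 0.03 for all genes. None of 7 ERK feedback targets was called. Of 3 CREB and ATF genes Batf, an AP-1 factor, was lower at 2 h (-2.22) and 6 h (-2.18).

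**Figure D3:**
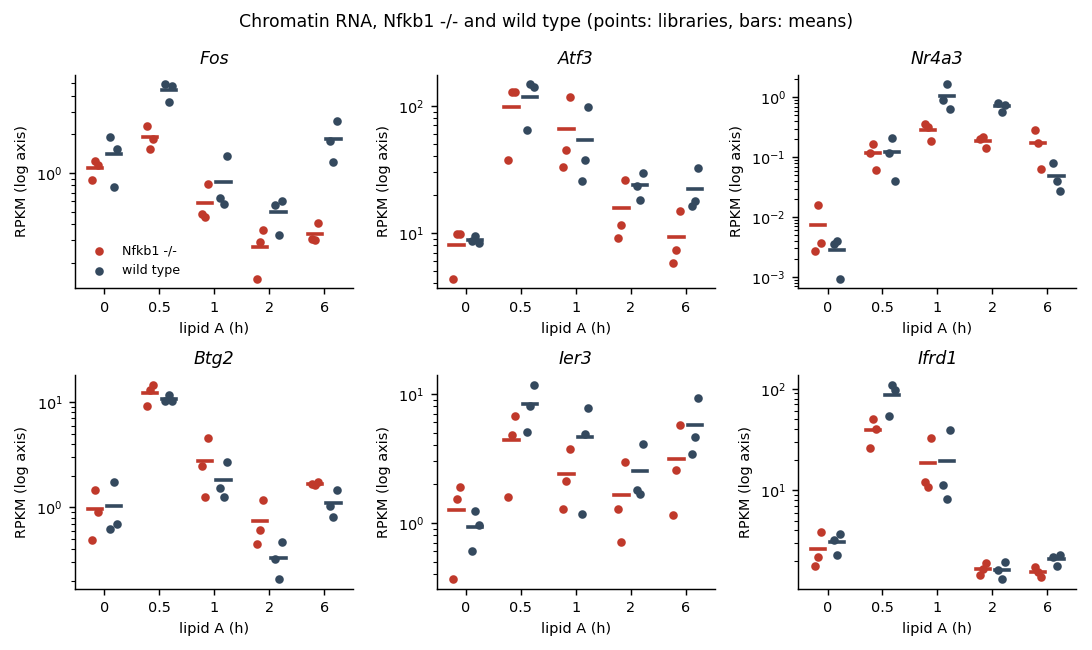
Chromatin RNA in RPKM (log axis) against hours of lipid A for Nfkb1-/- (left in each pair) and wild type (right), points for 3 libraries per group and bars for means. Fos separates at 0.5 and 6 h (mean 0.337 against 1.85 RPKM at 6 h), Ifrd1 at 0.5 h, Nr4a3 at 1 and 2 h and Atf3 at 6 h.

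In the Nfkbiz series, which tested IkBz, Nr4a3 was lower in Nfkbiz-/- cells at 1 h, but the call was lost with no filter. Ier3 was low at 2 and 6 h, and by a smaller ratio already at 0 h and at 1 h. Fos, Atf3, Btg2 and Ifrd1 were not called at any time. In this series 0.553% of 4885 genes were called lower at 1 h, 1.19% at 2 h and 3.62% at 6 h (4.26% over all stimulated times). Called higher were 1.84% at 6 h and 2.01% over all stimulated times. With 2 replicates and a median shift of -0.24 for all genes at 6 h, groups that do not overlap were common (29.2% of genes lower at 1 h, 38% at 2 h and 52.4% at 6 h).

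Nr4a3 at 1 h had 0.431 and 0.603 RPKM in Nfkbiz-/- cells, against 1.52 and 1.54 RPKM in wild type. The difference was -1.0 ± 0.19 (limma, adjusted p = 0.024). Nr4a3 passed the filter of 1 RPKM through wild-type libraries only, so the call rests on a filter that selected the group where the gene was high. It sat at the 2-fold threshold: it was -0.90 after centring and its adjusted p was 0.11 with a pseudocount of 0.1 and 0.088 with no filter. It was also lost without knockout replicate 1 (adjusted p = 0.42), knockout replicate 2 (0.058) or wild-type replicate 2 (0.13). At 6 h Nr4a3 lay higher, with 0.398 and 0.148 RPKM in Nfkbiz-/- cells, against 0.144 and 0.0605 RPKM in wild type (0.34 ± 0.19, adjusted p = 0.21).

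Ier3 at 2 h had 1.10 and 0.676 RPKM in Nfkbiz-/- cells, against 2.25 and 2.63 RPKM in wild type, a difference of -1.10 ± 0.28 that just missed the test (limma, adjusted p = 0.054). It passed with a pseudocount of 0.1 (0.031) or a filter of 3 RPKM (0.04). At 6 h it had 5.64 and 3.36 RPKM in Nfkbiz-/- cells, against 9.40 and 7.36 RPKM in wild type (-0.86 ± 0.28, limma adjusted p = 0.048), under 2-fold. This lost its adjusted p after centring (0.17). At 0.5 h the groups overlapped, with 7.66 and 12.0 RPKM in Nfkbiz-/- cells, against 9.73 and 11.9 RPKM in wild type. Before lipid A the means were 1.409 against 2.005 RPKM (-0.40 ± 0.28), and at 1 h 3.628 against 5.221 RPKM (-0.43 ± 0.28). These 2 differences were not called. The groups did not overlap at either time, as was so in that direction for 21.9% of genes at 0 h and 29.2% at 1 h.

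The 0.5 h values of the other members overlapped between genotypes. Fos then had 2.48 and 6.47 RPKM in Nfkbiz-/- cells, against 3.38 and 7.41 RPKM in wild type, and Ifrd1 had 81.6 and 157 RPKM, against 85.9 and 144 RPKM. The difference between the Nfkb1 and Nfkbiz effects, tested in 1 fit of the 4 series, passed for no member: for Fos it was -0.75 ± 1.47 at 0.5 h and -0.60 ± 1.47 at 6 h, and for Nr4a3 at 1 h 0.06 ± 0.35 (limma, adjusted p = 1 for each). Nfkbid replicate 1 widens that spread, and without it the values for Fos were -0.75 ± 0.63 and -0.60 ± 0.63, with adjusted p of 1 and 0.82. In that fit, 0.131% of 6113 genes were called at 6 h. Of 27 other immediate-early genes in the Nfkbiz series, 3 were called lower, Dusp1 (-4.13 ± 0.29 at 2 h), Cebpd (-2.40 ± 0.21 at 6 h) and Dusp2 (-1.85 ± 0.33 at 2 h), and 2 higher, Btg1 (1.64 ± 0.24 at 6 h) and Zfp36l1 (1.08 ± 0.22 at 6 h). Dusp1 and Dusp2 are phosphatases of MAP kinases, Cebpd a transcription factor, and Zfp36l1 a protein that promotes RNA decay.

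**Figure D4:**
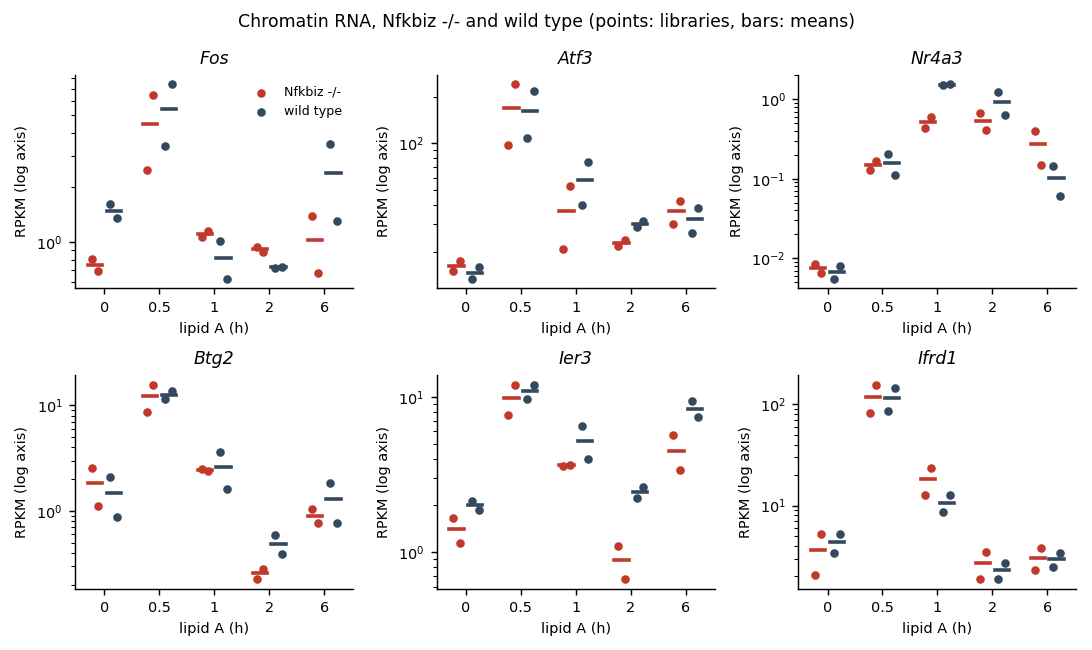
Chromatin RNA in RPKM (log axis) against hours of lipid A for Nfkbiz-/- (left in each pair) and wild type (right), points for 2 libraries per group and bars for means. Nr4a3 separates at 1 h (mean 0.517 against 1.53 RPKM) and Ier3 at 2 h (0.888 against 2.44 RPKM), while all 6 genes overlap at 0.5 h.

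No member was called in Bcl3-/- or Nfkbid-/- cells, where 0 genes of all were called at any time (limma, adjusted; at 0.5 h, 9 genes lower and 16 higher in Bcl3-/- cells and 0 genes in Nfkbid-/- cells passed an unadjusted p under 0.05 and 2-fold). In the Bcl3 series Atf3 at 0.5 h averaged 95.6 ± 49.8 RPKM in Bcl3-/- cells, against 135 ± 28.1 RPKM in wild type (SD, n = 2 each), and Ifrd1 averaged 61.9 ± 35.5 RPKM, against 90.8 ± 6.52 RPKM. Among the fits tried these were called lower in the 1 without Bcl3-/- replicate 2, by -1.14 (limma adjusted p = 0.018) and -1.29 (adjusted p = 0.004). That fit leaves 1 Bcl3-/- library, assumed to vary like the other groups, and 9.77% of its 4331 genes were called lower at 0.5 h. In the Nfkbid series Fos at 0.5 h averaged 89.1 ± 149 RPKM in Nfkbid-/- cells, against 60.8 ± 97.0 RPKM in wild type (n = 3 each), and 3.16 ± 1.71 against 4.79 ± 0.049 RPKM without replicate 1 (n = 2 each). The difference was -0.21 ± 1.49 with replicate 1 and -0.62 without it, and passed in neither fit (limma, adjusted p = 1).

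In chromatin RNA of cells given TNFa, a cytokine that acts through its own receptor and NF-kB, Ifrd1, Ier3 and Btg2 were higher at 0.5 h and Fos was not. Ifrd1 had 2.47, 18.8, 3.11, 3.66 and 4.0 RPKM at 0, 0.5, 1, 2 and 6 h. Ier3 had 1.45, 5.34, 1.44, 2.09 and 3.49 RPKM, and Btg2 had 0.882, 3.44, 0.719, 0.605 and 1.37 RPKM. All 3 were back near their 0 h value at 1 h, and Ier3 was again 2.41-fold above it at 6 h. Fos had 2.42, 1.73, 1.21, 3.02 and 3.99 RPKM, lower at 0.5 h than at 0 h, and Atf3 had 4.38, 5.29, 7.41, 6.60 and 5.84 RPKM. Nr4a3 stayed between 0.00128 and 0.0467 RPKM. Of 3709 genes, 7.82% were at least 2-fold higher at 0.5 h than at 0 h, and 3 of the 5 members past the filter were (Nr4a3 was under it). The series had 1 library per time and no test. Times between 0 and 0.5 h were not sampled, so an earlier rise of a gene such as Fos could be missed. In the polyA RNA described next, Fos was 12.7-fold and Atf3 2.52-fold above 0 h at 0.5 h of TNFa.

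PolyA RNA of wild-type cells separated the same genes by how long they stayed up, and lipid A and TNFa by how much. Values are given for 0, 0.5, 1, 2 and 6 h, with 1 library each and a shared 0 h library. Fos had 11.4, 336, 100, 4.36 and 18.0 RPKM with lipid A, against 11.4, 144, 10.7, 5.79 and 9.98 RPKM with TNFa. Btg2 had 8.16, 182, 66.1, 8.22 and 18.5 RPKM with lipid A, against 8.16, 116, 10.6, 8.32 and 6.27 RPKM with TNFa. Both were up with either agent at 0.5 h, and at 1 h they stood 9.38-fold and 6.22-fold higher with lipid A than with TNFa.

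Ier3 had 11.5, 243, 125, 56.6 and 222 RPKM with lipid A, against 11.5, 120, 12.96, 27.5 and 13.5 RPKM with TNFa. At 6 h it was high again with lipid A and not with TNFa, a 16.4-fold difference. With TNFa it had a smaller second rise at 2 h, from 12.96 to 27.5 RPKM. Nr4a3 had 0.051, 0.0468, 1.19, 4.54 and 0.97 RPKM with lipid A, against 0.051, 0.155, 0.265, 0.317 and 0.188 RPKM with TNFa, and so peaked at 2 h with lipid A. Atf3 had 114, 276, 324, 121 and 150 RPKM with lipid A, against 114, 287, 184, 153 and 65.8 RPKM with TNFa. Ifrd1 had 35.8, 95.5, 197, 117 and 29.4 RPKM with lipid A, against 35.8, 120, 113, 69.8 and 32.9 RPKM with TNFa, and both genes differed by less than 2-fold between the agents at 0.5, 1 and 2 h. At 1 h 3.2% of 9111 genes were at least 2-fold higher with lipid A than with TNFa, among them Fos, Nr4a3, Btg2 and Ier3.

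**Figure D5:**
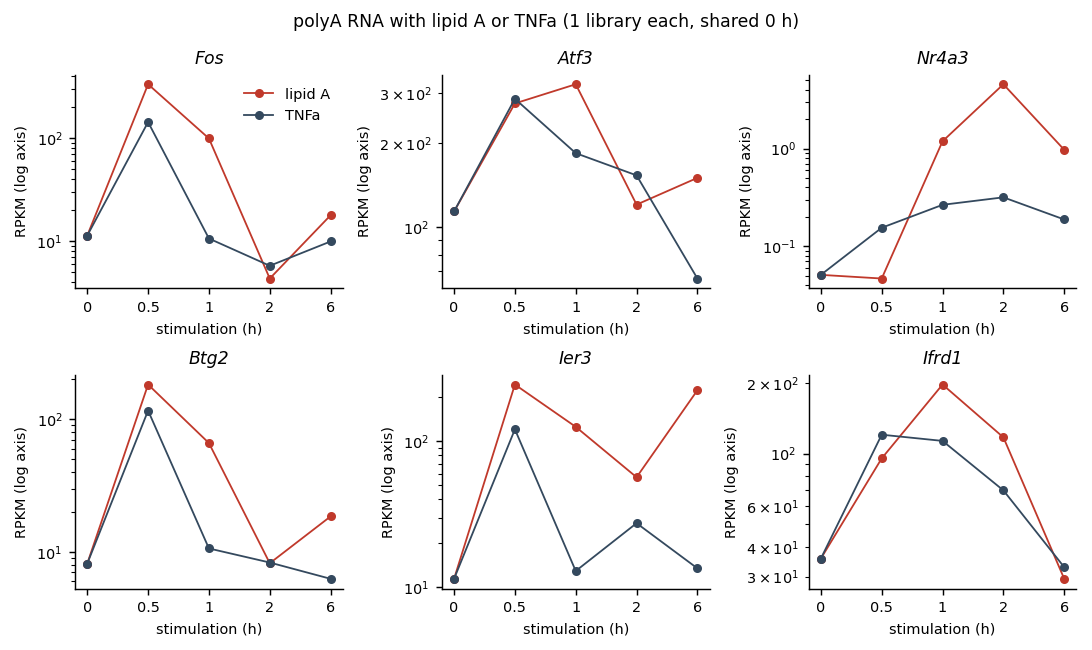
PolyA RNA in RPKM (log axis) against hours of lipid A or TNFa, 1 library per point and the same 0 h library in both lines. Fos, Btg2 and Ier3 are up at 0.5 h with both and stay up at 1 h with lipid A (100 against 10.7 RPKM of Fos), and Ier3 and Nr4a3 separate again later.

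In the IkBz OE series, Ier3 differed most of the 6 genes after lipid A. After 2 h of lipid A it had 7.01 RPKM in cells labelled IkBz OE, against 27.1 RPKM in control cells, and after 2 h of TNFa 16.0 against 28.4 RPKM. Its log2 ratio of -1.88 with lipid A was at least 2-fold lower, as was so for 1.47% of 6268 genes. Before stimulation Fos had 36.2 RPKM in IkBz OE cells, against 14.4 RPKM in control cells, and Btg2 5.92 against 1.81 RPKM, and 2.39% of genes were at least 2-fold higher. After lipid A both were close, with 3.88 against 2.98 RPKM of Fos and 6.53 against 6.57 RPKM of Btg2. Nr4a3 had 7.17 RPKM in IkBz OE cells after lipid A, against 10.1 RPKM in control cells, and Atf3 168 against 283 RPKM. Ifrd1 had 276 against 208 RPKM. There was 1 library per condition.

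In J2 cells no member was called between genotypes at 2 h, nor was any of 6436 genes (limma, 2 residual degrees of freedom; 210 genes passed an unadjusted p under 0.05 and 2-fold between the double knockout and wild type). Wild type and Nfkb1-/- had 1 library per time and are assumed to vary like the double knockout. At 2 h Nr4a3, which was under the filter, had 0.720 and 0.209 RPKM in Nfkb1-/- Nfkb2-/- cells and 0.603 RPKM in Nfkb1-/- cells, against 1.81 RPKM in wild type. Atf3 had 98.6 and 203 RPKM in the double knockout and 89.7 RPKM in Nfkb1-/- cells, against 223 RPKM in wild type. Fos spread widely between the 2 double knockout libraries, at 7.91 and 0.706 RPKM, with 10.3 RPKM in Nfkb1-/- cells, against 7.28 RPKM in wild type, a difference of -1.29 ± 1.31 (limma, adjusted p = 1). Ier3 had 176 and 111 RPKM in the double knockout and 109 RPKM in Nfkb1-/- cells, against 92.9 RPKM in wild type. Ifrd1 had 87.2 and 156 RPKM in the double knockout and 127 RPKM in Nfkb1-/- cells, against 126 RPKM in wild type. Btg2 had 6.76 and 3.38 RPKM in the double knockout and 7.69 RPKM in Nfkb1-/- cells, against 3.09 RPKM in wild type. From 0 to 2 h in the double knockout Fos differed by -2.84 ± 1.07 (limma, adjusted p = 0.42). With the replicate number as a block Fos was called lower over that time (adjusted p = 0.049) and Ifrd1 higher (1.02 ± 0.10, adjusted p = 0.031), as were 1.4% and 3% of genes in those directions.

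Across the means of the 53 chromatin conditions the highest level of Atf3 was 169 RPKM, in Nfkbiz-/- cells at 0.5 h, and that of Ifrd1, 119 RPKM, fell in the same condition. The next in order, wild type of the same series at 0.5 h, did not differ from these beyond the spread, with 163 RPKM of Atf3 and 115 RPKM of Ifrd1. Fos, Btg2 and Ier3 were highest in the Nfkbid series at 0.5 h, which rests on replicate 1, and outside that series their highest conditions were DMSO at 15 min, with 49.5, 45.2 and 17.7 RPKM. Nr4a3 was highest at 1 h in the Bcl3 and Nfkbiz series, with 1.56 RPKM in Bcl3-/- cells and 1.53 RPKM in wild type of the Nfkbiz series. As a description over these 53 means, which share libraries' depth and series, genes with a pattern among the 3 most like each member by Pearson r of log2(RPKM + 0.5), among 4313 genes compared, were Jun (0.837) and Glipr1 (0.832) for Fos, and Srgn (0.889), Klf6 (0.885) and Ppp1r15a (0.885) for Atf3. For Nr4a3 they were Cx3cl1 (0.879), Adamts4 (0.875) and Rnd1 (0.873), and for Btg2 Nr4a1 (0.947), Ier2 (0.927) and Pmaip1 (0.923). For Ier3 they were Zfp36 (0.893), Mcl1 (0.867) and Junb (0.844), and for Ifrd1 Ptp4a1 (0.95), Gm13363 (0.949) and Etf1 (0.938). Among the members Btg2 and Ifrd1 ran most alike (0.84), and Nr4a3 was the least like the others, at -0.404 with Fos and 0.273 with Atf3.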

How the data were processed

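RNA levels are RPKM as deposited by the authors, 1 value per gene and library, on mm9, and the submitters' processing notes name HISAT2 and SAMtools. Per the labels' protocols the kit keeps strand and chromatin RNA was prepared, also for libraries labelled polyA RNA. The length in the chromatin values is the whole gene, tested on the file. Values of 0 and unused columns numbered 0. Reads per library were recovered from the steps between low values: 97.02% or more of values up to 30 reads were whole within 0.02. Exact intervals at 95% cover counting error only.

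Values were tested as log2(RPKM + 0.5) with limma 3.58.1 in R 4.3.3 (trend), on genes of at least 1 RPKM in at least n libraries, n being the replicates per group (10 for wild type, 2 for series without replicates). A call needed an adjusted p under 0.05 and 2-fold. The scripts were tested on simulated data in the layout of the Nfkb1 series, with changes set at 6 h. Of 100 genes with a true log2 change of 1.5 in size, 60 were recovered, and of 100 with a change of 2, 64. Of 4169 unchanged genes, 2 were called. A gene not called may therefore still differ. Series with 1 library per condition had ratios and no test. Named genes were the 6 members, the 3 genes most like each (1 of those for Fos is not reported here), list genes called in knockouts (at most 6 per comparison), and list genes past 2-fold with the ERK inhibitor at 30 or 60 min (at most 6 per direction). Btg1 and Jdp2 in the ERK series fall outside this rule and were named after their values were seen, to complete counts. Members and lists were chosen with earlier results of these data known.

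Same-numbered libraries of the Nfkb1 series deviated together (correlations 0.61 to 0.918), as did those of the Nfkbid series (0.885 to 0.969), so that the numbers pair these samples, and blocked values stand beside results they change. Alternatives were the pseudocount, the filter, centring, replicate blocks, another spread and leaving out replicates or series. Leaving out Nfkbid replicate 1 from fits over the 4 series was added after seeing the data. Promoter windows come from RefSeq on GRCm38.p6, and no coordinate was moved between builds.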

Additional observations from a re-analysis of the deposited data

Results flagged for a closer look

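Of 30 groups of 10 wild-type libraries (6 genes at 5 times), 20 held a library whose gap to its nearest neighbour exceeded 0.466 of the range. Chance flags about 1 group in 20 where values are independent and normally spread. RPKM pooled over series need not be so, and the groups share libraries, so the flags are not separate events. In 19 of the 20 groups the library was replicate 1 of the Nfkbid series. For Fos it had 172.9, 10.25, 2.864 and 10.09 RPKM at 0.5, 1, 2 and 6 h, and the next highest library at 0.5 h had 7.413 RPKM. For Btg2 it had 10.15, 227.4, 41.14, 5.911 and 7.782 RPKM at 0, 0.5, 1, 2 and 6 h, and for Ier3 8.532, 258.6, 32.16, 12.03 and 55.2 RPKM. For Atf3 it had 27.57, 50.68 and 60.46 RPKM at 0, 2 and 6 h, for Nr4a3 0.4081 RPKM at 6 h and for Ifrd1 8.111 RPKM at 2 h. Replicate 1 also had 0.0931 to 0.6734 RPKM of the nuclear RNA Rmrp, against 748.7 RPKM or more in replicates 2 and 3, and the part of this in the values was not tested. The other library was replicate 3 of the Nfkb1 series, with 38.72 RPKM of Ifrd1 at 1 h, next to 16.53 RPKM.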

How the results depend on the processing

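Among alternative values for members, 475 counted as kept, 30 fell below the threshold, 12 passed it and 8 reversed. Kept means the same direction and side of the threshold. In the ERK series it means a move within the counting interval, whichever side of 2-fold the value fell. Fos in the Nfkbid series at 0.5 h, not called, was -0.21, and ran from -2.29 to 1.47 when single replicates were left out, positive at 1.08 and 0.58 when knockout replicates 2 or 3 were omitted and at 1.47 when wild-type replicate 1 was. The difference of effects on Nr4a3 at 1 h (0.06) turned to -0.09 with a pseudocount of 0.1 and -0.06 with centring, and ran from -0.14 to 0.32 when single replicates were left out, at -0.00 without Nfkb1 knockout replicate 1 and -0.06 without Nfkbiz knockout replicate 1.

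Genes called at any stimulated time in the Nfkb1 series numbered 47, and 30 with a filter of 3 RPKM, 122 with a replicate block, 183 with a replicate block at each time, 10 with each time alone, 21 with 1 spread over the 4 series (72 without Nfkbid replicate 1) and 22 to 43 when single replicates were left out. In the Nfkbiz series they numbered 305, and 601 and 194 with pseudocounts of 0.1 and 1, 42 with 1 spread (136 without Nfkbid replicate 1) and 121 to 348 without single replicates. In the Bcl3 series they numbered 0, and 2 with no filter, 1 with a filter of 3 RPKM, 2 and 3 with the replicate blocks, 1 with centring, 1 with 1 spread without Nfkbid replicate 1 and 0 to 554 without single replicates. In the Nfkbid series 0 became 1 without replicate 1 and with the replicate block at each time. For the difference of effects, 9 became 14 with centring, 116 with a replicate block, 64 without Nfkbid replicate 1 and 5 to 13 without single replicates. The wild-type response of 2144 genes became 1366 with a pseudocount of 1 and 1063 with a filter of 3 RPKM. Between the double knockout and wild type at 2 h in J2 cells 0 became 4 with a pseudocount of 1, 53 with no filter and 176 with a replicate block, and leaving out a double knockout replicate was not run. Genes past 2-fold with the ERK inhibitor at 30 min (88) became 154 and 49 with pseudocounts of 0.1 and 1, those in chromatin at 0.5 h of TNFa (452) became 685 with a pseudocount of 0.1 and 251 with a filter of 3 RPKM, and those between lipid A and TNFa at 0.5 h in polyA RNA (246) became 389 with no filter and 123 with a filter of 3 RPKM. Causes were not tested.

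Replicate numbers of the Nfkbiz and Bcl3 series give 2 pairs at each time. Their same-numbered libraries also deviated together at every time (correlations 0.447 to 0.731 and 0.267 to 0.761). With 2 replicates both pairs at a time give the same correlation, and what the shared number stands for was not tested. With the replicate block Ier3 at 2 h in the Nfkbiz series was called (adjusted p = 0.027). Nr4a3 at 1 h stayed called (0.0084), under the same filter that it passed through wild type only. The shares of all genes called in this blocked fit are not given here. Series with 1 library per condition have no error beyond counting, and depth is not known here for polyA RNA. Nr4a3, and Fos in Nfkb1-/- cells at 6 h, are limited by their low level.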
